A study of Homo sapiens with 4 samples.

Results

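The 8 genes described here encode the canonical high mobility group (HMG) proteins HMGA1, HMGA2, HMGB1, HMGB2, HMGB3, HMGN1, HMGN2 and HMGN3. They were chosen by family and by their Ensembl identifiers, with no measured value in the rule, from 20428 gene identifiers that carried a sense peak in at least 1 of 2 peak lists. A sense peak is a stretch of RNA bound by IGF2BP2 that lay on the strand of the gene, with most of its length in an intron, a UTR, the CDS or a noncoding exon. The members held 35 of 74237 sense peaks in replicate 1 and 44 of 77288 in replicate 2.

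The study asked which RNAs are bound by IGF2BP2 in Jurkat cells, an established human T cell acute lymphoblastic leukemia line. It used iRIP-seq, an immunoprecipitation of UV-crosslinked RNA and protein with an antibody against IGF2BP2. All libraries came from Jurkat cells with no treatment or genotype named in the labels, in 2 IGF2BP2 iRIP libraries and 2 input libraries. The labels do not say whether the replicates were separate cultures, and the inputs were not analysed here. The lists were given per iRIP library, held no read totals, and started at a height of 4 tags for replicate 1 and 5 for replicate 2. Read depth is therefore unknown, and heights were left as listed. With a single condition and no counts for the inputs, the values are descriptions without a test, and a high peak can reflect either much RNA or much binding per RNA, which cannot be told apart here.

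HMG proteins are small, abundant chromatin proteins that bind DNA or nucleosomes with little sequence preference and bend, loosen or bridge chromatin. HMGA proteins bind the minor groove of AT-rich DNA through AT-hooks, HMGB proteins bend DNA through HMG boxes, and HMGN proteins bind the nucleosome core and oppose the linker histone H1. IGF2BP2 is a cytoplasmic RNA-binding protein that stabilizes mRNAs and promotes their translation, and the HMGA2 protein is a known activator of the IGF2BP2 gene.

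Jurkat identity was read from the same peak lists. Over all identifiers with a sense peak in either list, 59.5% had one in both replicates and 3.96% had one of at least 10 tags in both. Of 11 T cell markers, 9 had a sense peak in both replicates and 5 had one of at least 10 tags in both. CD3D, a chain of the T cell receptor complex, reached 17 tags in replicate 1 and 14 in replicate 2, and LCK, its proximal kinase, reached 16 and 24 tags. CD2 had sense peaks in replicate 1 only, of up to 8 tags, and CD28 in replicate 2 only, of up to 6 tags. A sense peak in both replicates was found for 1 of 5 B cell markers, 1 of 5 myeloid markers, 0 of 3 erythroid markers and 2 of 4 epithelial markers, and none of these reached 10 tags in both.

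Sense peaks were present in both replicates for 7 of the 8 members, against 59.5% of all identifiers with a sense peak in either list. HMGN3 was the exception, with a peak in replicate 1 only. The identifiers were not restricted to protein-coding genes, as the members are. Of 20428 identifiers 14047 could be named by position, 11774 of them as protein-coding genes. The shares over all identifiers given here are therefore not those of protein-coding genes alone. In 4 members, HMGA1, HMGB2, HMGN1 and HMGN2, each replicate had a sense peak of 10 or more tags, where 3.96% of all identifiers had one. An exonic sense peak in both replicates was found for 5 members, the same 4 and HMGB1, against 23.6% of identifiers. The same 5 members were also those with a replicate 1 peak overlapped by a peak of replicate 2, a property of 16.4% of identifiers. The members thus fell into 4 genes with high shared peaks, HMGB1 with peaks that were high in 1 replicate, and HMGA2, HMGB3 and HMGN3 with peaks of at most 6 tags, none of which overlapped between replicates.

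**Figure D1:**
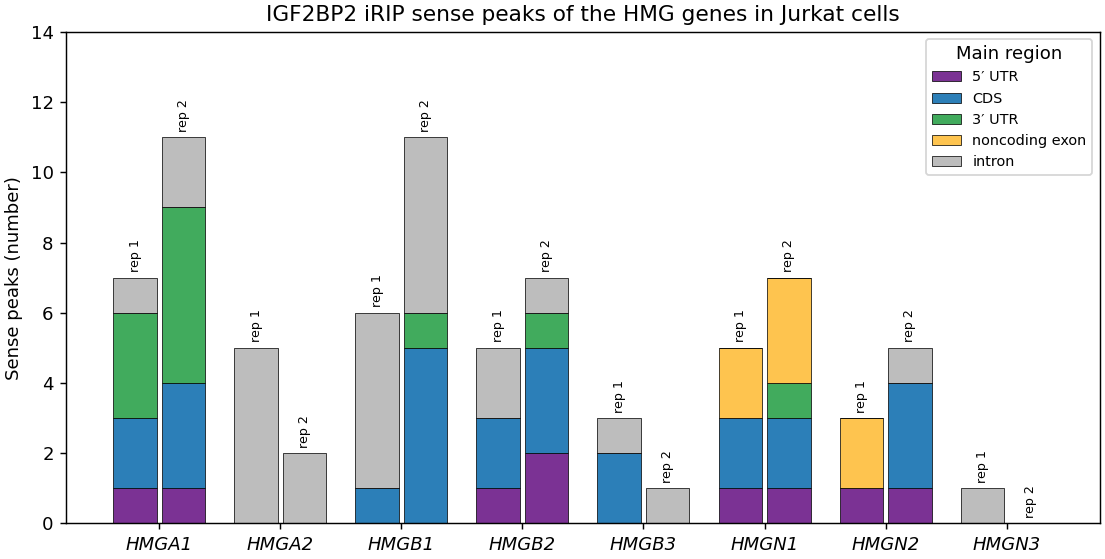
Number of sense peaks (vertical axis) of each of the 8 HMG genes (horizontal axis) in replicate 1 (left bar) and replicate 2 (right bar), stacked by the region that held most of each peak's length. HMGA1 and HMGB1 reached 11 peaks in replicate 2, HMGA2 peaks were all intronic, and HMGN3 had 1 intronic peak in replicate 1 and none in replicate 2.

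**Figure D2:**
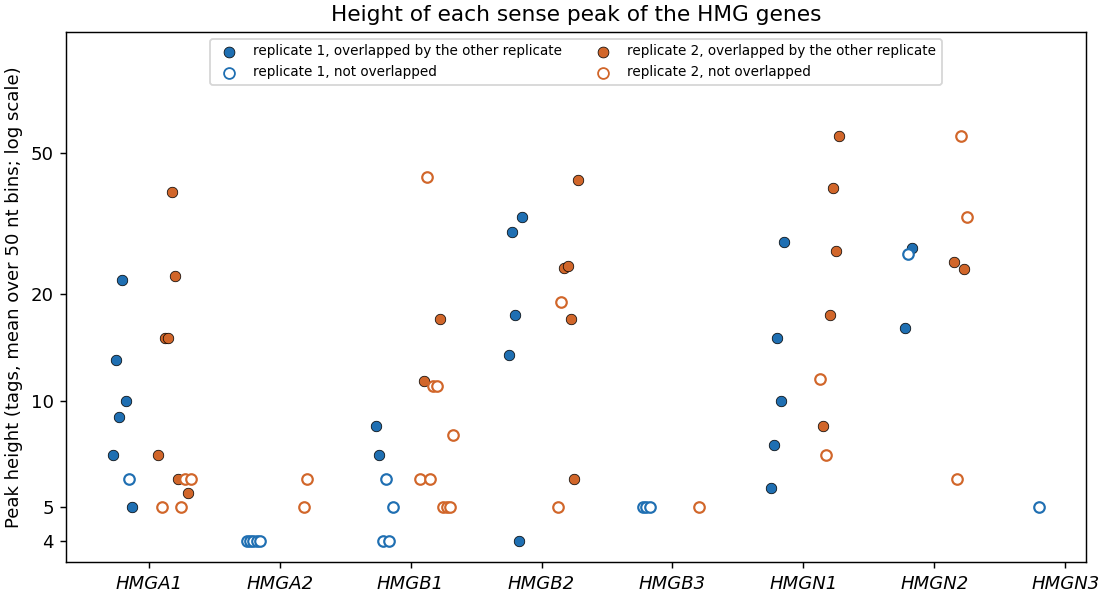
Height of every sense peak in tags, on a log scale, for each HMG gene. Blue circles are replicate 1, orange circles are replicate 2, and filled circles are peaks that overlapped between replicates. HMGB2 and HMGN1 peaks of at least 20 tags were all filled, whereas the 43-tag peak of HMGB1 and the 56-tag peak of HMGN2 were open.

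HMGA1, an AT-hook protein that is abundant in embryonic and tumour cells, is encoded at chr6:34236873-34246231 on the plus strand of GRCh38 (ENSG00000137309.20). It had 7 sense peaks in replicate 1 and 11 in replicate 2, the largest number over both replicates among the members. Its highest peak by listed height lay at chr6:34243450-34243500, mainly in CDS (0.66 of its length), with 22 tags in replicate 1 and 39 in replicate 2. Both replicates also listed a peak at chr6:34240850-34240900 in CDS with 9 and 15 tags. A neighbouring peak at chr6:34240700-34240750, 0.72 of it in an intron and the rest in the 5′ UTR, had 13 and 15 tags.

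The 3′ end of HMGA1 held most of its remaining peaks. In replicate 1 a peak of 250 nt spanned the end of the CDS and the start of the 3′ UTR at chr6:34244800-34245050 with a height of 10 tags. Replicate 2 listed this stretch as a CDS peak of 22.5 tags at chr6:34244800-34244900 and a lower one of 6 tags at chr6:34244950-34245100. The height of a peak wider than 50 nt proved to be a mean over its 50 nt bins. Bins worked back from the heights and p values reached 23 tags for the wide peak of replicate 1 and 37 tags for the CDS peak of replicate 2. HMGA1 had 3 peaks mainly in the 3′ UTR in replicate 1 and 5 in replicate 2, and apart from the wide one none exceeded 6 tags.

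HMGA2, the second AT-hook protein and a classical let-7 target of embryonic and mesenchymal cells, showed another picture. Its gene of 141832 nt (chr12:65824460-65966291, plus strand, ENSG00000149948.14) held 5 sense peaks in replicate 1, each of 4 tags, and 2 in replicate 2, of 5 and 6 tags. All were intronic and none overlapped between replicates. These heights were at or 1 tag above the lowest value of each list. Replicate 1 also listed 2 antisense peaks of 4 tags for HMGA2, whose interval overlaps the annotated genes RPSAP52, HMGA2-AS1 and HMGA2-AS2, so the source of single low peaks there is uncertain.

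HMGB2, an HMG-box protein of proliferating cells, is encoded within 2983 nt at chr4:173331376-173334358 on the minus strand (ENSG00000164104.12). It had 5 sense peaks in replicate 1, all overlapped in replicate 2, and 7 in replicate 2, of which 5 were overlapped. The highest was the same in both replicates, a peak entirely in the 5′ UTR at chr4:173334250-173334300 with 33 and 42 tags. Its centre lay 83 nt after the RefSeq start site.

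Further into HMGB2, peaks of both replicates lined up at identical positions. A CDS peak at chr4:173333550-173333650 had 17.5 and 17 tags, and a wider one at chr4:173333050-173333250 had 13.5 and 23.75 tags. Between them, the peak at chr4:173333450-173333500 was 0.98 intronic by the deposited annotation and reached 30 tags in replicate 1 and 24 in replicate 2. This made it the second highest HMGB2 peak by listed height in both replicates. Since the listed height is a mean over bins, the wider CDS peak may hold a higher bin, between 21 and 33 tags in replicate 1 and between 30 and 70 in replicate 2, which could exceed the 5′ UTR peak in replicate 2. Replicate 2 alone listed a CDS peak of 19 tags at chr4:173332150-173332200 and a peak of 5 tags at the start of the 3′ UTR.

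HMGB1, the most widely expressed HMG-box protein and, outside cells, an inflammatory signal, had the widest gap between replicates in its highest peak. Its gene spans 160894 nt (chr13:30456704-30617597, minus strand, ENSG00000189403.15). In replicate 1 it had 6 sense peaks, 5 of them intronic, with a lowest height of 4, a median of 5.5 and a highest of 8.5 tags. In replicate 2 it had 11, with 5 in CDS, a median of 8 and a highest of 43 tags.

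The 43-tag peak of HMGB1 lay in CDS at chr13:30463200-30463250 and had no counterpart in replicate 1. Other CDS peaks of replicate 2 without a counterpart had 6, 11 and 11 tags, at chr13:30463300-30463350, chr13:30463500-30463600 and chr13:30463650-30463700. Peaks at 2 places were shared. A CDS peak starting at chr13:30462600 in replicate 1 and chr13:30462550 in replicate 2 had 8.5 and 11.3 tags, and a mostly intronic one at chr13:30465750-30465800 had 7 and 17 tags. The remaining intronic peaks, 4 in replicate 1 and 4 in replicate 2, had 4 to 6 and 5 to 8 tags, and none was shared. Replicate 2 alone had a 3′ UTR peak of 6 tags.

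HMGB3, an X-linked HMG-box protein, is encoded at chrX:150980507-150990771 on the plus strand (ENSG00000029993.15). It had 3 sense peaks in replicate 1, 2 in CDS and 1 mainly in an intron, each of 5 tags. Replicate 2 listed a single intronic peak of 5 tags. No HMGB3 peak overlapped between replicates.

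Sequence could be set beside the peaks only where they met RefSeq promoter windows of GRCh38.p14, which run from 250 bases before to 50 after a start site. This held for an intronic peak of HMGB1 in replicate 1, 4 tags high, over 36 bases at chr13:30466151-30466186 on the minus strand, and for the only HMGB3 sense peak of replicate 2, 5 tags high, over 50 bases at chrX:150983101-150983150 on the plus strand. They are shown because the letters GGAN, in which N is any base, are those the study discusses for IGF2BP2, and each is written 5′ to 3′ on the strand of the gene, with capitals kept for GGAN.
HMGB1: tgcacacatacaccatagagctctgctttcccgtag
HMGB3: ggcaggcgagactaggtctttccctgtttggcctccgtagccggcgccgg
Neither held GGAN, nor GGAC, which is contained in it, on the strand of the gene, so no capitals appear. On the other strand GGAN occurred 1 time in the HMGB1 stretch and 2 times in the HMGB3 stretch. Among 35116 promoter windows, the stretch at the place of the HMGB1 peak held GGAN on the strand of the gene in 47.3% and on either strand in 75.4%, and GGAC on the strand of the gene in 12.1%. At the place of the HMGB3 peak these shares were 58.8%, 85.8% and 16.6%.

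HMGN1, a nucleosome-binding protein that keeps chromatin open, lies at chr21:39342315-39349088 on the minus strand (ENSG00000205581.11). It had 5 sense peaks in replicate 1, all overlapped in replicate 2, and 7 in replicate 2, of which 5 were overlapped. Its highest peak was again the same in both replicates, at chr21:39348900-39348950, with 28 and 56 tags. This peak lay 0.66 in the 5′ UTR and 0.30 in CDS, with its centre 163 nt after the RefSeq start site.

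A run of 3 further HMGN1 peaks followed, with gaps of 50 nt between them. In transcript order, the peak at chr21:39348500-39348600 had 10 and 26.5 tags, that at chr21:39348400-39348450 had 15 and 40 tags, and that at chr21:39348250-39348350 had 7.5 and 17.5 tags. All 3 were split between CDS and noncoding exon in the deposited annotation. Each was over 2 times higher in replicate 2. A CDS peak further on, starting at chr21:39345100, had 5.67 and 8.5 tags, and replicate 2 alone listed a peak of 11.5 tags at the border of CDS and 3′ UTR at chr21:39343050-39343150.

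HMGN2, a close relative of HMGN1 with the same nucleosome-binding motif, is encoded at chr1:26472440-26476642 on the plus strand (ENSG00000198830.11). All 3 of its sense peaks in replicate 1 and 4 of 5 in replicate 2 had at least 10 tags. The 5′ peak at chr1:26472500-26472650, 0.75 of it in the 5′ UTR, had 16 tags in replicate 1 and 24.7 in replicate 2. A peak starting at chr1:26474050 had 27 and 23.5 tags. In replicate 1 it was 1 bin wide, and in replicate 2 its height was the mean of bins of 5 and 42 tags.

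The other high peaks of HMGN2 were each listed in 1 replicate only. Replicate 1 had a peak of 26 tags at chr1:26473450-26473550, with bins of 8 and 44 tags. Replicate 2 had a CDS peak of 56 tags at chr1:26473700-26473750 and another of 33 tags at chr1:26474550-26474600. According to the study's methods, iRIP peaks that overlapped a peak of the input were removed. A peak missing from 1 list may thus have had too few tags or have met an input peak, and which of these holds for HMGN2 or HMGB1 was not tested.

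HMGN3, a relative expressed mainly in brain and endocrine tissue, lies at chr6:79201245-79234682 on the minus strand (ENSG00000118418.14). It had a single intronic sense peak of 5 tags at chr6:79212400-79212450 in replicate 1 and none in replicate 2.

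**Figure D3:**
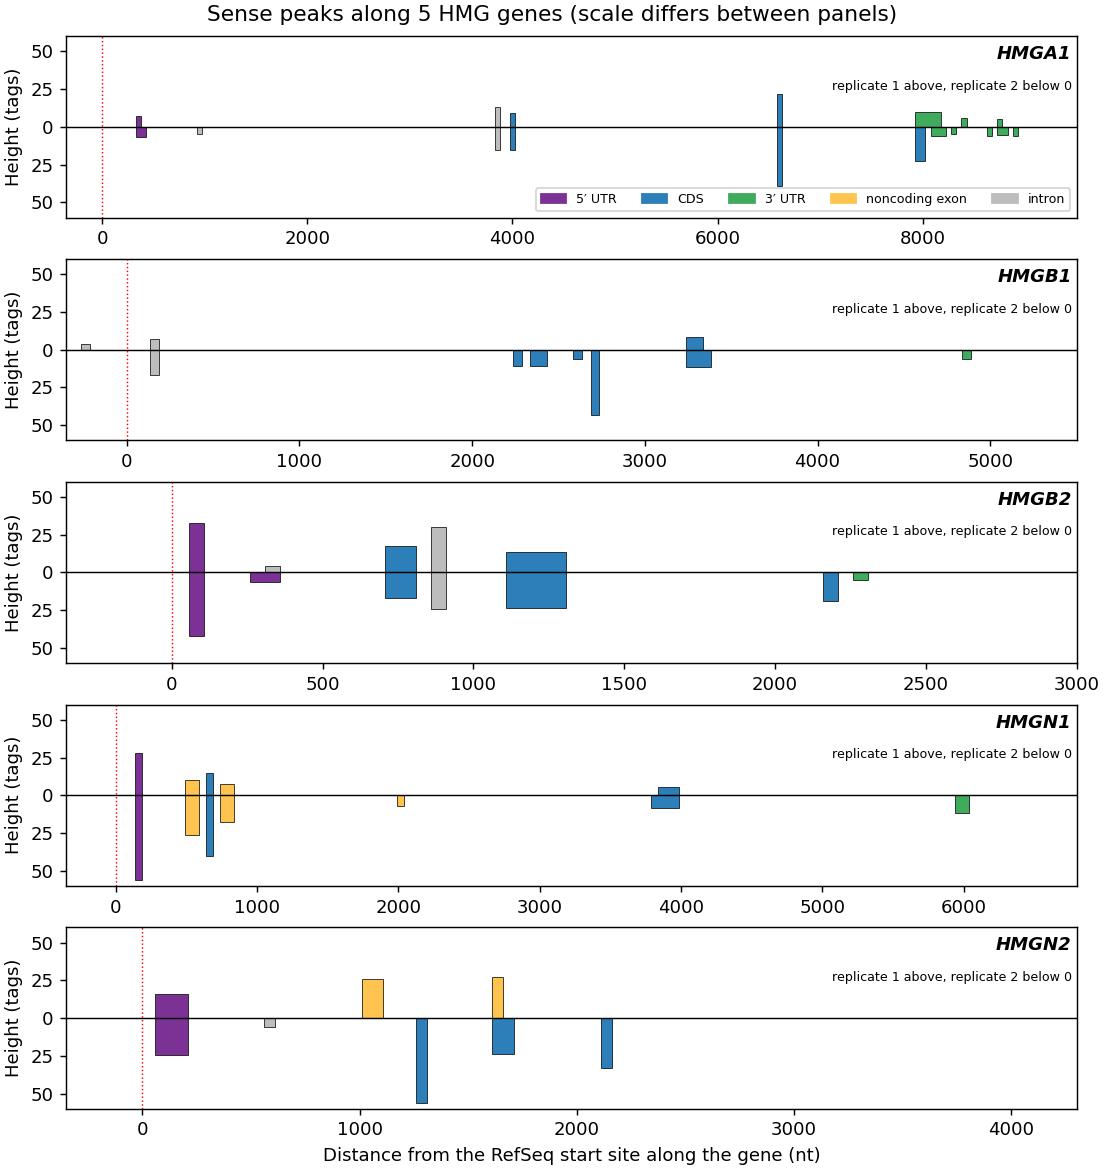
Sense peaks of HMGA1, HMGB1, HMGB2, HMGN1 and HMGN2 by distance in nt along the gene from a RefSeq start site (dotted line), with heights in tags for replicate 1 above and replicate 2 below 0 and colours for the main region. For HMGB1 the panel leaves out intronic peaks further upstream. The 5′ UTR peaks of HMGB2 and HMGN1 are the highest of their genes by listed height in both replicates, and the CDS peaks of HMGB1 lie mostly below 0.

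The order of the members by the lower of their 2 highest heights was HMGB2 with 33 tags, HMGN1 with 28, HMGN2 with 27, HMGA1 with 22, HMGB1 with 8.5, HMGB3 with 5 and HMGA2 with 4. Among 12154 genes with a sense peak in both replicates these values ranked 15th, 27th, 34th, 58th, 1057th, 3240th and 6896th, counted from the top of each tie. HMGB3 shared its rank with a tie of 3606 genes, and HMGA2 stood in the lowest tie, of 5259 genes at 4 tags. The median over these genes was 5 tags, shared by HMGB3. The first 4 members followed each other within 11 tags, while their own replicates differed by 9 to 29 tags. All 4 were higher in replicate 2, and with depth unknown these gaps are not a measure of spread. HMGB2 was first of the 4 in replicate 1 with 33 tags. In replicate 2 its 42 tags stood below the 56 of HMGN1 and of HMGN2. Differences among the 4 were not tested. HMGB1 at 8.5 and 43 tags cannot be placed within the order by its replicates. With the highest 50 nt bin in place of the mean over bins, HMGN2 reached 44 tags in replicate 1 in place of 27, above the 33 of HMGB2, and HMGA1 23 in place of 22. HMGB1 reached 11 in place of 8.5, and by this measure it would join the 4 members with at least 10 tags in each replicate.

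For HMGA1, HMGB2 and HMGN1, 3 of 7 members with peaks in both, the highest peak by listed height overlapped between replicates. Of all genes with peaks in both, 7.43% had this property. For HMGA1 it rests on the listed height. Its highest bin in replicate 1, of 23 tags, lay in the wide peak at chr6:34244800-34245050. In replicate 2 the highest bin, of 39 tags, was the peak at chr6:34243450-34243500. For HMGB2 and HMGN1 the highest peak by listed height lay mainly in the 5′ UTR in both replicates, against 1.41% of genes. HMGA1 and HMGN2 also had a 5′ UTR peak shared by both replicates, though not as their highest. In HMGA1 it had 7 tags in each list and lay further from the start site, with its centre 352 nt away in replicate 1 and 377 nt in replicate 2.

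The regions of the members' peaks were compared with those of all sense peaks. CDS was the main region of 9 of 35 member peaks in replicate 1 (25.7%, 95% Wilson interval 14.2% to 42.1%) and of 16 of 44 in replicate 2 (36.4%, 23.8% to 51.1%). Over all sense peaks the shares were 19.9% and 25.6%, inside these intervals. Introns held 15 member peaks in replicate 1 (42.9%, 28.0% to 59.1%) and 12 in replicate 2 (27.3%, 16.3% to 41.8%), against 69.2% and 62.4% of all sense peaks, above both intervals. The 5′ UTR held 4 and 5 member peaks (11.4% in both replicates) against 2.78% and 3.33% overall. The intervals cover counting error alone, because PCR copies are not separate molecules, and peaks of the same gene are not independent either.

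The intronic share of the peaks was set out by family and by gene, with no test. HMGN peaks were mostly exonic, with 1 intronic peak among 9 in replicate 1 and 1 among 12 in replicate 2. HMGB genes had 8 intronic peaks of 14 and 7 of 19, and HMGA genes 6 of 12 and 4 of 13. Within the HMGA genes, all HMGA2 peaks were intronic against 1 of 7 and 2 of 11 for HMGA1. Within the HMGB genes, HMGB1 had 5 intronic peaks of 6 and 5 of 11, HMGB2 had 2 of 5 and 1 of 7, and HMGB3 had 1 of 3 and 1 of 1. Peaks of at least 10 tags made up 6 of 9 and 9 of 12 HMGN peaks, 4 of 14 and 10 of 19 HMGB peaks, and 3 of 12 and 4 of 13 HMGA peaks. The 4 members that reached 10 tags in each replicate are the 4 shortest genes, between 2983 and 9359 nt. HMGB3 is close to them in length, at 10265 nt, and its listed heights were 5 tags. The part of length was not tested.

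The members' peaks were also higher than most, and more of them were wide. Their median height was 7 tags in replicate 1 and 11 in replicate 2, against 4 and 5 over all sense peaks. At least 10 tags were reached by 13 of 35 (37.1%) and 23 of 44 (52.3%), against 2.73% and 8.75% overall. Peaks wider than 50 nt made up 28.6% and 34.1% of member peaks, against 4.93% and 8.24%.

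Overlap between replicates was found for 20 of 35 member peaks of replicate 1 (57.1%, 40.9% to 72.0%), against 16.6% of all sense peaks of that list. In replicate 2 it was found for 21 of 44 (47.7%, 33.8% to 62.1%), against 15.8%. Among peaks of at least 10 tags the gap was smaller, with 12 of 13 member peaks (92.3%) against 73.5% in replicate 1 and 16 of 23 (69.6%) against 62.4% in replicate 2. By region, 5′ UTR peaks overlapped in 4 of 4 and 5 of 5 cases, CDS peaks in 7 of 9 and 9 of 16, and intronic peaks in 4 of 15 and 3 of 12. Over all sense peaks these shares were 39.4% and 31.2% for the 5′ UTR, 45.8% and 35.0% for CDS, and 7.11% and 7.12% for introns. Member peaks in the 3′ UTR overlapped in 2 of 3 and 2 of 8 cases, against 15.8% and 13.6%, and those in noncoding exons in 3 of 4 and 2 of 3, against 21.2% and 18.0%. Peaks of at least 20 tags without a counterpart numbered 1 of 6 in replicate 1, in HMGN2, and 3 of 13 in replicate 2, in HMGB1 and HMGN2. Over all sense peaks of that height 32.2% and 24.5% had no counterpart.

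At 13 places the 2 lists gave exactly the same interval for a member, and 11 of these peaks (84.6%) were higher in replicate 2, against 77.2% among all 8370 sense peaks with the same interval in both lists. The ratio of replicate 2 to replicate 1 had a median of 1.76 and ran from 0.8 to 2.67. All 4 such HMGN1 peaks lay between 2 and 2.67, and the ratios below 1 were those of the 30-tag and 17.5-tag peaks of HMGB2. Over all such sense peaks the median ratio was 1.43 with quartiles of 1.14 and 1.83. Over the 1020 of at least 10 tags in replicate 1 it was 1.2, and 59.8% of these were higher in replicate 2. Depth was not known, so the ratios describe these lists and not a difference in binding.

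Other genes of these families were described in the same way. Of 3 other canonical HMG genes, HMGN4 had sense peaks in both replicates with highest heights of 6 and 10 tags, and no identifier could be named as HMGB4 or HMGN5. Among 23 other genes of HMG-box proteins, 19 had a sense peak in both replicates, against 59.5% of identifiers. At least 10 tags in both were reached by 6, against 3.96% of identifiers. Ranked by the lower of the 2 highest heights, the first were TCF7 with 21.5 and 30 tags, LEF1 with 17 and 23 tags, both T cell transcription factors of the Wnt pathway, and UBTF, a factor of ribosomal RNA transcription, with 16 and 18 tags. No identifier could be named as TFAM, the mitochondrial HMG-box protein.

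Linker histones, which compete with HMG proteins for nucleosomes, had sense peaks in both replicates for 6 of 7 genes, against 59.5% of identifiers. At least 10 tags in both were reached by 4, against 3.96% of identifiers. H1-3 reached 17.7 and 25 tags, H1-10 12 and 24.5 tags, and H1-5 11.5 and 39 tags. No identifier could be named as H1-1. Their median of the lower of the 2 highest heights was 11 tags, against 6 tags for the HMG-box list and 5 over all genes.

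Of 16 partners and regulators of HMG proteins, 11 had sense peaks in both replicates, against 59.5% of all identifiers with one in either list. In both replicates 3 reached 10 tags, against 3.96% of identifiers. These were NPM1, a nucleolar histone chaperone, with 24 and 19 tags, and SET and ANP32B, acidic histone-binding proteins, with 18 and 20 and with 16 and 28 tags. No identifier could be named as APEX1, RAG2 or TLR4. IGF2BP2 itself had 4 intronic sense peaks in each replicate, with a highest height of 5 tags in both. The identifiers of these lists were named by position. Within the intervals of the genes left without a name, H1-1 and TLR4 had no peak on either strand in either replicate. HMGB4 and TFAM had 1 and 2 peaks in replicate 1 only, APEX1 and RAG2 1 peak each in replicate 2 only, and HMGN5 1 in each replicate.

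The pattern of HMGA1 was set against 11773 other named protein-coding genes over 10 numbers, the sense peaks in each of 5 regions in each replicate. The smallest summed differences were 4 peaks for DHPS, 5 for CBX5 and 6 for RNF187. Their highest peaks were lower, at 10 and 11 tags for DHPS, 7 and 14 for CBX5 and 7 and 13.5 for RNF187, against 22 and 39 for HMGA1. The likeness is one of counts per region over 2 libraries and says nothing of the heights.

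The RefSeq table lists 178 pseudogenes named after the members, 50 of HMGB1, 48 of HMGN2, 38 of HMGN1, 32 of HMGB3, 8 of HMGA1 and 1 each of HMGB2 and HMGN3. The authors kept uniquely mapped reads, so reads that match a member and a copy equally well would be missing from the heights of HMGB1, HMGB3, HMGN1 and HMGN2 to an unknown degree. Peaks on either strand fell within 9 of these pseudogene intervals in each replicate, 4 of them in both.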

How the data were processed

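Peak lists of the 2 IGF2BP2 iRIP libraries of Jurkat cells were used. The inputs were not analysed here. The authors aligned read pairs to GRCh38 (build and TopHat 2 per the submitters' processing notes, which also name bcl2fastq), kept uniquely mapped reads, called peaks in each library by simulation and removed those that met input peaks. Heights were deposited as a signal counted in tags, with no depth given, and the deposited p-value of a peak is the authors' own and served as a filter and to work back bins. Peaks lie on a grid of 50 nt, and 2.87% of peaks in replicate 1 and 5.33% in replicate 2 span several bins. For all of these, the height times the number of bins was whole within 0.01, and for all peaks of 2 bins the p value equalled the mean of those of single bins, so heights of wide peaks are means.

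Peaks were assigned by the deposited gene identifier and counted in the region with most of their length. Positions are those of the lists, and gene intervals come from RefSeq (GRCh38.p14). Of 20428 identifiers, 14047 were named by position, from at least 80% of their exonic peaks or all of their peaks within a margin of 1000 nt, and all 8 members were named alike. Overlap required 1 nt on the same strand. Shares have 95% Wilson intervals. No test between conditions was possible.

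The members and the lists of related genes and markers were chosen with earlier results of these data known. All 8 members were named, with the 3 genes nearest in pattern to the member with most peaks, at most 3 genes per related list with at least 10 tags in both replicates, and listed genes without a named identifier where 5 or fewer. CD3D, LCK, CD2 and CD28 were named after their values were seen, as examples of the marker check. HMGN4 and IGF2BP2 were also named after their values were seen. Alternatives were minimum heights of 5 and 10 tags, a p value under 0.001, exonic peaks only, assignment by interval, weighting by length, other overlap rules, each replicate left out, and, chosen after seeing the data, the highest bin. Functions for overlap and naming were tested on simulated data. Computations ran under Python 3.11.15 (scipy 1.17.1, pandas 2.3.3, numpy 2.4.6), and figures were drawn with matplotlib 3.10.9.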

Additional observations from a re-analysis of the deposited data

Results flagged for a closer look

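Peaks on the opposite strand lay outside the comparisons above. The highest antisense peak of HMGN2 reached 6 tags in replicate 1 and 10 in replicate 2, both at chr1:26473450-26473500. In replicate 1 this place lies within the sense peak of 26 tags, while replicate 2 had no sense peak there. A second antisense peak of HMGN2 at chr1:26472500-26472550, with 4 and 9 tags, lay within its 5′ sense peak in both replicates. HMGB1 had 8 antisense peaks of 4 tags in replicate 1 and 7 in replicate 2, the highest of 6 tags. In all, 4 of 15 antisense peaks of members in replicate 1 (26.7%) and 2 of 10 in replicate 2 (20%) lay at a sense peak, against 1.41% and 1.62% of all antisense peaks. Sense peaks of members are higher than most, and the part of their height in this was not tested.

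Among the pseudogenes, the highest peak reached 11 tags in replicate 1 and 15 in replicate 2. Both lay at chr3:22381700-22381750, at the edge of the RefSeq interval of HMGB1P5, which is named here after its values were seen. Every other peak in a pseudogene interval had at most 6 tags in replicate 1 and at most 5 in replicate 2.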

How the results depend on the processing

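Of 65 recomputed values, 55 stayed within the spread between replicates or within 1.5 times the count. The others follow. With at least 10 tags, 4 members in place of 7 had peaks in both replicates, and their peaks numbered 13 in replicate 1 and 23 in replicate 2. The CDS share in replicate 2 rose to 60.9%, near the 59.9% of all sense peaks of that height. In replicate 1 the CDS share, counted as unchanged, was 30.8%, against 58.5% of all sense peaks of that height. The overlapped share in replicate 1 rose to 92.3%. With a p value under 0.001, 16 and 22 peaks were left. This filter also removes wide peaks of high tags, whose p value is a mean over bins: a p value of 0.001 or more was held by 3 of the 13 member peaks with 10 or more tags in replicate 1 and by 4 of the 23 in replicate 2, all wider than 50 nt, against 4% and 4.11% of all sense peaks of that height. With exonic peaks only, replicate 1 had 20 peaks, of which 80.0% were overlapped. The highest bin of HMGB3 in replicate 1 was 6 tags in place of 5. Leaving out a replicate gave 7 to 8 members with a sense peak. Exonic peaks gave no value for HMGA2 in either replicate, HMGB3 in replicate 2 or HMGN3. No paired analysis was possible because the iRIP libraries form a single group and no result comes from a test.

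Depth is unknown, the lists have different lowest heights, and their heights are set side by side without scaling.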
